A study of Mus musculus with 16 samples.

Results

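Cells sorted from the dorsal striatum of PVCre mice were compared with cells sorted from the same region of PV-tdTomato mice. The comparison took every array titled for striatum, 4 of the PVCre line against 4 of the PV-tdTomato line, which is 8 of the 16 arrays in the series. The other 8 arrays hold the same lines in cortex and are used here to estimate the spread and to ask whether a line difference was larger in one region. Each gene was read from 1 transcript cluster, the array's unit of measurement, among those annotated with a single gene.

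The PV-tdTomato group carried the genotype PV-tdTomato/+ and is labelled as having no Cre. The PVCre group carried PVCre/+ together with tdTomato/+. Both groups were C57BL/6J mice labelled male and 30 days old, and no treatment was given to either. The tissue was dissociated, fluorescent cells were sorted by flow cytometry, and RNA was taken from 2000 cells per replicate. Each replicate pooled 2 to 4 mice, so a replicate is a pool and not an animal. The labels name both reporters only by PV, the protein parvalbumin, and do not say which other cells the reporters or the gate may include. No label gives a day, slide or operator, so the line and any such batch cannot be told apart.

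Parvalbumin interneurons are fast-spiking inhibitory neurons that release GABA onto the cell bodies of their targets. In the dorsal striatum they receive cortical input and inhibit the projection neurons, which make up most of the neurons there. A direct reporter marks cells that are transcribing the parvalbumin promoter, whereas a Cre reporter marks cells that carried Cre at any earlier time. Microglia, the resident macrophages of brain tissue, and vessel cells are common companions of neurons in suspensions of dissociated brain.

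The deposited values are log2 levels after robust multi-array averaging (RMA), in which background is subtracted, arrays are brought to a common distribution and probes are summarised. The 23 probe sets that the array carries as background controls had mean levels between 2.95 and 6.10, and a level in that range is called within background here. The separation between positive and negative control probe sets was 3.46 ± 0.25 log2 units in the PVCre striatal arrays and 4.53 ± 0.25 in the PV-tdTomato striatal arrays (SD, n = 4 each), with ranges of 3.09 to 3.60 and 4.16 to 4.74. The exact permutation test of this difference of -1.06 gave p = 0.0286, two-sided, the smallest that 4 arrays against 4 can give. This measure therefore moved with the line. The difference lay mostly in the positive control median, at -1.25 against -0.19 for the negative one. Whether it came from the arrays or from the RNA put on them was not tested. The difference in separation was addressed by 2 alternatives. In one all arrays were rescaled to equal control medians, called control rescaling here. In the other each array's separation was a covariate of the fit, called the separation covariate, which gave 5632 called genes between the lines, 2117 higher and 3515 lower. The striatal groups' values of this covariate did not overlap.

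Individual arrays stood apart within both groups. PV-tdTomato arrays 3 and 4 lay away from arrays 1 and 2 on the second principal component of the 8 striatal arrays, which held 21.1% of the variance, while the first held 65% and separated the lines. Their mean level over 16 pan-neuronal genes was 10.19 and 10.56, against 11.69 and 11.70 in arrays 1 and 2. PVCre array 1 had the lowest pan-neuronal mean of the group, 9.25 against 10.03, 10.48 and 10.11 in the others. It also had the highest means over 17 endothelial genes, 8.89, and over 13 pericyte and smooth muscle genes, 7.97. Counts that lead a paragraph are therefore given also without PV-tdTomato arrays 3 and 4 or without PVCre array 1 where these change them by more than 1.5 times. Some are also given without the 6 arrays of the series lowest in Pvalb, which are PV-tdTomato arrays 3 and 4 of both regions and PVCre cortical arrays 2 and 4. The choice of arrays to leave out was made after seeing the data.

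The labelled sex did not match every array. Xist, a long noncoding RNA made from the silenced X in female cells, was at 5.71, 6.04, 15.93 and 6.04 in PV-tdTomato arrays 1 to 4. In PVCre arrays 1 to 4 it was at 13.88, 5.90, 14.34 and 13.40. The Y-linked gene Eif2s3y was at 9.57, 9.54, 5.75 and 9.98 in the PV-tdTomato arrays and at 7.84, 9.20, 6.08 and 7.81 in the PVCre arrays. Thus 4 of the 8 pools labelled male had Xist above 13, and PVCre arrays 1 and 4 had both Xist and an intermediate Y-linked level. None of Xist, Eif2s3y, Kdm5d and Uty was called different between the lines, with adjusted p-values of 0.19 to 0.48 in limma's moderated test. The same replicate numbers had high Xist in cortex, at 16.01 in PV-tdTomato array 3 and at 15.03, 14.96 and 14.78 in PVCre arrays 1, 3 and 4. Eif2s3x and Kdm5c, the X-linked partners of Eif2s3y and Kdm5d, were lower in PVCre arrays, by -2.03 ± 0.26 and -1.17 ± 0.19 log2 units (SE). The other X-linked partners tested, Ddx3x and Kdm6a, differed by -0.15 ± 0.17 and 0.10 ± 0.38 and were not called (adjusted p = 0.48 and 0.85 in limma). After control rescaling these 2 were called higher and Eif2s3x and Kdm5c lower.

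Of 20495 genes tested, 10942 (53.4%) differed between the lines at an adjusted p under 0.05 in limma's moderated test with Benjamini-Hochberg adjustment. Levels were higher in PVCre cells for 3760 genes (18.3%) and lower for 7182 (35%). The PVCre arrays all lay above the PV-tdTomato arrays for 17.1% of the tested genes and all below them for 33.2%. Among genes that were called, 1335 were higher and 3268 lower by more than 1 log2 unit. Against so broad a difference, a gene list is of interest only where its share departs clearly from 18.3% higher and 35% lower, and these shares are given here in place of a test of each list.

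The size and balance of the difference depended on the level and on the scaling. Among the 2050 genes of lowest level 36.1% were higher and 15.6% lower, with a median difference of 0.17. Among 2050 genes with levels of 8.68 to 9.62, 8.39% were higher and 50.1% lower, with a median of -0.62. Over all tested genes the median was -0.22. Quantile normalization moved this median up by 0.20 and gave 49.6% of called genes as higher, against 34.4% as deposited. Control rescaling moved it up by 0.52 and gave 73.9% as higher, 7621 genes against 2686. Directions are therefore stated below as deposited, and a gene group whose direction turned under either scaling is named as such. Of the genes called higher, 53.4% had a PV-tdTomato mean within background, so for these the difference is set against background and not against a measured level.

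**Figure D1:**
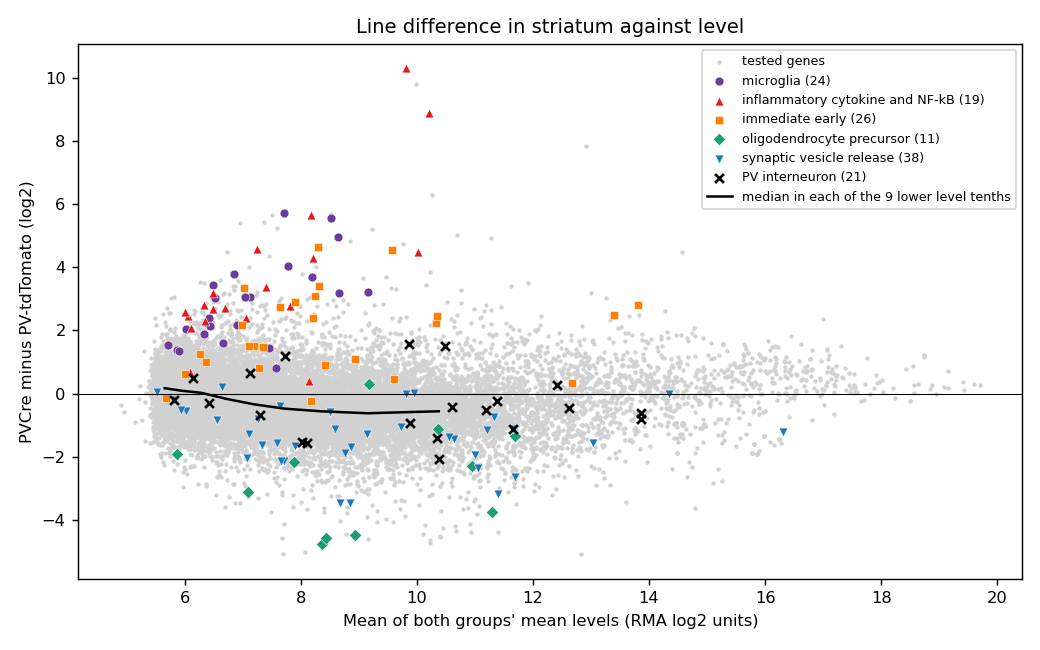
Difference between PVCre and PV-tdTomato striatal means (vertical axis, log2) against the mean of both groups' levels (horizontal axis, RMA log2 units) for 20495 tested genes in grey, with 6 gene lists in colour and the median difference in the 9 lower of 10 level bins, of about 2050 genes each, as a black line. Microglial, inflammatory and most immediate early genes lie above 0, oligodendrocyte precursor and synaptic vesicle genes mostly below it, and the median falls from 0.17 in the lowest bin to -0.62 at levels of 8.68 to 9.62.

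The parvalbumin gene itself was detected in both lines. Pvalb, which encodes the calcium buffer that names these cells, was at 11.38, 11.86, 7.29 and 8.40 in PV-tdTomato arrays 1 to 4. It was at 10.20, 11.23, 11.87 and 11.65 in PVCre arrays 1 to 4. PVCre arrays 2 to 4 lay close to PV-tdTomato arrays 1 and 2, PVCre array 1 was lower, and PV-tdTomato arrays 3 and 4 lay far below all others. The difference of 1.51 ± 1.43 log2 units (SE) was not called (adjusted p = 0.39).

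Of 21 tested genes of the parvalbumin interneuron list, 3 were lower and none was higher as deposited, against 35% and 18.3% of all genes, with a median difference of -0.47. This list turned direction under scaling, with 5 higher and none lower after control rescaling and 1 higher and none lower after quantile normalization. With the separation covariate 6 were higher and none lower, and without the 6 arrays lowest in Pvalb 9 were lower and none higher. The 3 lower genes were Sox6 and Lhx6, transcription factors of interneurons born in the medial ganglionic eminence, and Kcna2, a potassium channel subunit. Lhx6 was at 9.55, 9.61, 7.80 and 8.16 in PV-tdTomato arrays and at 6.51, 7.15, 7.68 and 7.67 in PVCre arrays, a difference of -1.53 ± 0.48 (adjusted p = 0.014). Sox6 was at 10.71, 10.65, 12.26 and 12.01 against 8.55, 9.32, 9.72 and 9.80, a difference of -2.06 ± 0.64 (adjusted p = 0.014). Its highest values were in PV-tdTomato arrays 3 and 4, the arrays with the least Pvalb, which was the reverse of Lhx6. Oligodendrocyte precursors also express Sox6, and their part in its difference was not tested. Kcna2 was lower by 0.92 ± 0.31 as deposited and higher by 0.20 after control rescaling.

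Genes of GABA synthesis and transport divided. Gad1, which makes most of the neurotransmitter GABA, was at 14.41, 14.09, 12.09 and 12.77 in PV-tdTomato arrays and at 11.92, 13.41, 14.43 and 13.92 in PVCre arrays, so the groups overlapped and the difference was 0.08 ± 1.08. Gad2, the enzyme of nerve terminals, differed by -1.39 ± 0.82 (adjusted p = 0.17) with overlapping arrays. Slc32a1, which loads GABA into vesicles, was at 13.96, 13.63, 11.88 and 12.44 against 8.67, 9.87, 10.60 and 10.12. All 4 PVCre arrays lay below all PV-tdTomato arrays, and the difference was -3.16 ± 0.94 (adjusted p = 0.011). Abat, which degrades GABA, was lower by 1.91 ± 0.52 (adjusted p = 0.0067). The calls for Slc32a1 and Abat were lost after control rescaling, when no gene of this list of 9 was called in either direction, as with the separation covariate. Without the 6 arrays lowest in Pvalb 7 of the 9 were lower.

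**Figure D2:**
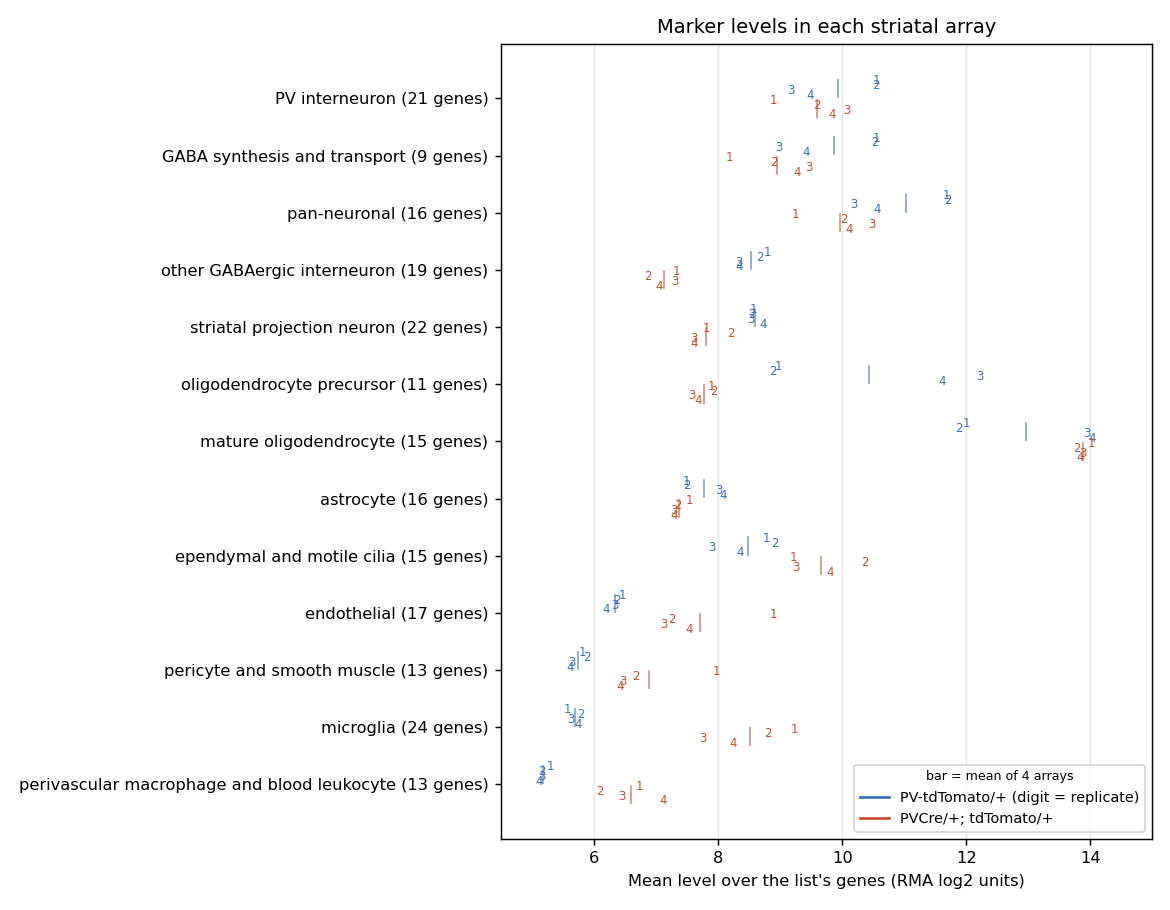
Mean level over the genes of each cell type list (horizontal axis, RMA log2 units) in each of the 8 striatal arrays, with the digit giving the replicate and the bar the mean of 4 arrays. Microglial, macrophage, endothelial and mural lists are higher in all PVCre arrays, precursor lists in all PV-tdTomato arrays, and the parvalbumin interneuron, GABA and pan-neuronal lists are split within the PV-tdTomato group between arrays 1 and 2 and arrays 3 and 4.

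Microglial genes were higher in PVCre cells. Of 24 tested, 23 were higher and none lower, against 18.3% and 35% of all genes, with a median difference of 2.72 log2 units. Control rescaling gave 24 higher and quantile normalization 23, while the separation covariate gave 9 higher and none lower, with a median of 1.96. Tyrobp, the signalling adaptor of microglial surface receptors, was at 4.71, 4.96, 4.75 and 5.00 in PV-tdTomato arrays, all within background, and at 11.93, 11.20, 8.83 and 10.26 in PVCre arrays. Its difference of 5.70 ± 0.83 was among the 15 largest rises (adjusted p = 6.5e-05).

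The other defining microglial genes moved with Tyrobp. Cx3cr1, the fractalkine receptor, was at 6.79, 7.09, 7.01 and 7.33 in PV-tdTomato arrays and at 11.05, 11.01, 9.23 and 9.70 in PVCre arrays. P2ry12, a purine receptor of resting microglia, was at 4.70, 5.42, 4.70 and 5.21 against 9.18, 8.63, 7.01 and 7.35. Tmem119 was higher by 1.60 ± 0.15 and Csf1r, the receptor that sustains microglia, by 3.78 ± 0.52. For Tyrobp, Cx3cr1, P2ry12 and Tmem119 PVCre arrays 1 and 2 were above arrays 3 and 4, and for these and Csf1r no PVCre array overlapped a PV-tdTomato array. Sall1, a microglial transcription factor, was the 1 member not called, at 0.82 ± 0.34 (adjusted p = 0.053).

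The mean over the 24 microglial genes was 5.58 to 5.79 in PV-tdTomato arrays, within the background range, and 7.76 to 9.24 in PVCre arrays. In bulk samples a larger share of a cell type and more of its RNA per cell cannot be told apart. Of 18 microglial genes with a PV-tdTomato mean within background, none had a PVCre mean within it. With the microglial mean of each array as a covariate 3076 genes were called between the lines, 559 higher and 2517 lower. The groups' values of this covariate did not overlap.

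Perivascular macrophage and blood leukocyte genes were higher for 8 of 9 tested, with a median of 2.23. The same count was found after both scalings, against 4 with the separation covariate. Of the 9 tested, 8 had a PV-tdTomato mean within background, so members could pass the low-level filter through the PVCre arrays. Without that filter 8 of 13 were higher, with a median of 1.045. Mrc1, a mannose receptor of perivascular macrophages, was at 5.16, 5.22, 5.22 and 5.05 in PV-tdTomato arrays and at 7.21, 6.34, 7.50 and 9.34 in PVCre arrays. Pf4, a chemokine of macrophages and platelets, was at 5.31 to 5.54 against 6.62 to 9.55. The highest value of both was in PVCre array 4, not in array 1, where microglial genes peaked. Ly6c2, a surface protein of monocytes that closely resembles the endothelial Ly6c1, was higher by 5.22 ± 0.86, and signal may be shared between these copies.

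The largest differences included inflammatory genes. Of 19 tested genes of cytokines, chemokines and the NF-kB pathway 18 were higher and none lower, with a median of 2.78, and 18 were higher after control rescaling and after quantile normalization. The separation covariate left 7 higher and none lower, with a median of 2.18. Of the 19 tested, 16 had a PV-tdTomato mean within background, so members could pass the low-level filter through the PVCre arrays. Without that filter 23 of 24 were higher, with a median of 2.63. Il1a, the cytokine interleukin 1 alpha, was at 4.70, 4.68, 4.68 and 4.60 in PV-tdTomato arrays and at 16.36, 16.14, 13.87 and 13.45 in PVCre arrays. The PV-tdTomato values were within background and close together, and the difference of 10.29 ± 0.90 was the largest among named genes (adjusted p = 8.7e-07). Ccl3, a chemokine that attracts macrophages, was at 5.95, 5.94, 5.71 and 5.48 against 16.07, 15.29, 13.54 and 13.69, a difference of 8.88 ± 0.84.

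Tnf, the cytokine tumour necrosis factor, was at 5.76, 5.20, 5.28 and 5.20 against 12.79, 12.40, 9.82 and 8.997, a difference of 5.64 ± 0.92. Ccl2, a monocyte attractant, was at 5.87 to 6.25 against 10.91, 9.88, 9.89 and 10.72, a difference of 4.28 ± 0.32 and the smallest p of the list (adjusted p = 2.7e-07). For Il1a, Ccl3 and Tnf arrays 1 and 2 were above arrays 3 and 4, whereas Ccl2 was highest in arrays 1 and 4. Il1b was higher by 3.18 ± 0.40, Ptgs2 (cyclooxygenase 2) by 2.79 ± 0.65, and Csf1 by 0.40 ± 0.50, the 1 member not called (adjusted p = 0.53).

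Targets that restrain NF-kB, the transcription factor that drives many cytokine genes, were higher as well. Nfkbia, its cytoplasmic inhibitor, was at 7.74, 7.77, 7.88 and 7.77 in PV-tdTomato arrays and at 13.36, 12.76, 11.28 and 11.65 in PVCre arrays, a difference of 4.47 ± 0.53. Tnfaip3, a ubiquitin-editing enzyme induced by NF-kB, was higher by 2.40 ± 0.50. Cxcl2, a neutrophil attractant and not such a restraint, was higher by 4.58 ± 0.46. The promoters of Nfkbia, Tnfaip3 and Cxcl2 are shown because these 3 genes moved together and each holds a match to the NF-kB consensus. This is a motif of 10 bases searched on both strands. The sequences are the 250 bases before the RefSeq start on build GRCm38.p6, 5′ to 3′ on the gene's strand, with the matching bases in capitals. Cxcl2 lies on the plus strand, with the window at chr5:90903649-90903898. Nfkbia lies on the minus strand, at chr12:55492648-55492897. Tnfaip3 lies on the minus strand, at chr10:19015411-19015660.
Cxcl2: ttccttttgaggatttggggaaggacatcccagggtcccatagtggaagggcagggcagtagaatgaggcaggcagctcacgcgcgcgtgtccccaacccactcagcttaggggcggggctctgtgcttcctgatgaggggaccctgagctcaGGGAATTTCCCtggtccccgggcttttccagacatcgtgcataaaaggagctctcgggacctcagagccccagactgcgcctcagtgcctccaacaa
Nfkbia: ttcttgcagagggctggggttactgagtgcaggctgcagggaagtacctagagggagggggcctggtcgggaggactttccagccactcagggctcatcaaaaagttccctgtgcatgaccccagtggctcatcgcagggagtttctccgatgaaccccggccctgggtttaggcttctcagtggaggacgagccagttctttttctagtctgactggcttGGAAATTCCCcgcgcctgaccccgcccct
Tnfaip3: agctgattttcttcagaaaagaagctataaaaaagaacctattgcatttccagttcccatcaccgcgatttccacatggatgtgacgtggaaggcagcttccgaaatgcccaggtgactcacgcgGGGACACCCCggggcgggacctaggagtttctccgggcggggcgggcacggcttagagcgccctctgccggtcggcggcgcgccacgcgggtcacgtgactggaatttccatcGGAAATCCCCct

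In the Cxcl2 window 2 overlapping matches began 97 and 96 bases before the start, in the Nfkbia window 1 match began 29 bases before it, and in the Tnfaip3 window 2 matches began 125 and 12 bases before it. A match was found for 5 of the 12 inflammatory genes with a RefSeq promoter, namely Csf1, Cxcl2, Nfkbia, Tgfb1 and Tnfaip3, and for 10.2% of 12246 tested genes. It was found for 11% of 1786 genes called higher and 10.6% of 5323 called lower. Of other lists, 6 of 21 immediate early, 2 of 18 microglial and 2 of 30 synaptic vesicle genes held a match. The inflammatory list was drawn up to include NF-kB pathway genes, so its share is not a test of the motif. A match describes the letters in the window and is not a binding site, and Csf1, which holds one, was not called.

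**Figure D3:**
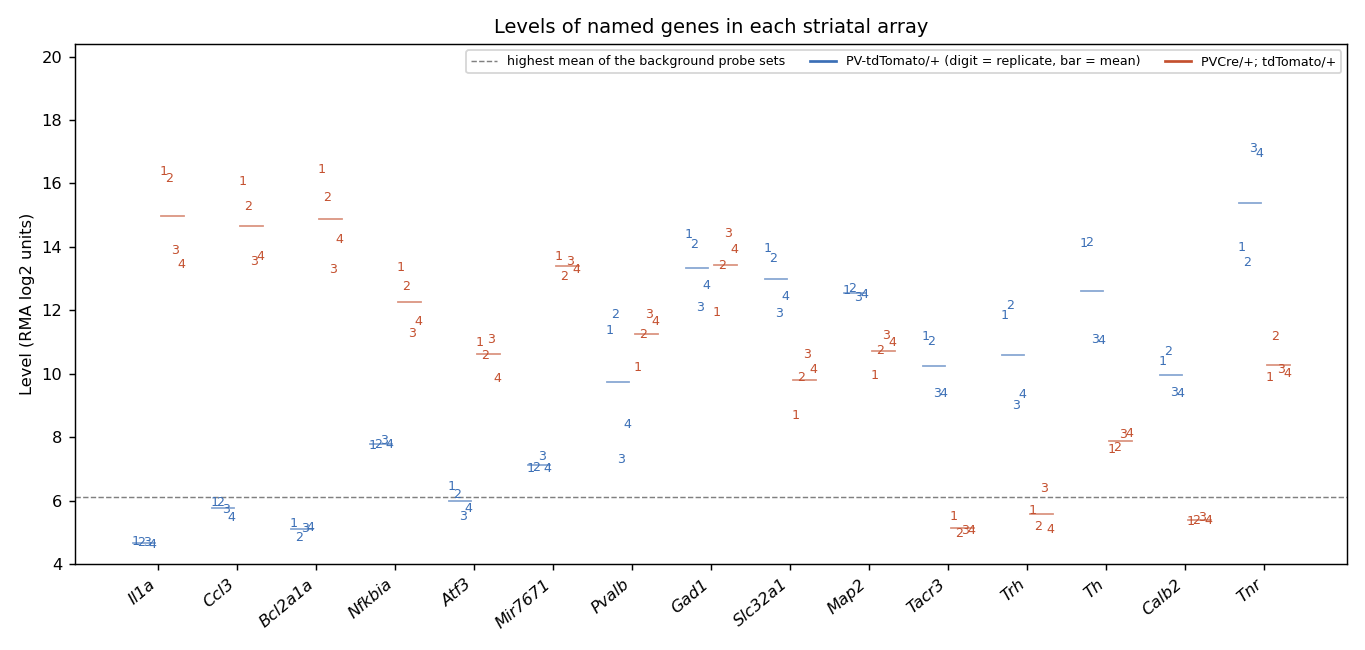
Levels (vertical axis, RMA log2 units) of 15 named genes in each of the 8 striatal arrays, with the digit giving the replicate, the short bar the group mean and the dashed line the highest mean of the background probe sets, 6.10. Il1a, Ccl3, Bcl2a1a and Atf3 rise from near background in PV-tdTomato arrays, Tacr3, Trh and Calb2 lie near background in PVCre arrays, and the groups overlap for Pvalb and Gad1.

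Further genes among the 15 largest rises are immune genes. Bcl2a1a, an anti-apoptotic protein of blood cells, was at 5.28, 4.82, 5.13 and 5.14 in PV-tdTomato arrays and at 16.44, 15.57, 13.28 and 14.24 in PVCre arrays. Bcl2a1a has near-identical neighbouring copies, so its signal cannot be assigned to a single copy. C3ar1, a receptor for a complement fragment, was higher by 5.65 ± 0.79, Tlr7, a sensor of single-stranded RNA, by 5.69 ± 0.75, and Nlrp3, a core protein of the inflammasome, by 5.43 ± 0.67. Cd86, a costimulatory protein of antigen-presenting cells, was higher by 5.23 ± 0.73 and Ly86, a partner of Toll-like receptors, by 5.56 ± 0.77. In each of these 6 genes PVCre array 1 was highest and array 3 lowest, and no PVCre array overlapped the other line. Microglial marker levels moved with them in the same order of arrays, and the part of these cells in their rise was not tested.

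Other large rises did not follow that order. Traj55, a segment of the T cell receptor alpha locus, was at 9.02, 9.51, 9.15 and 8.28 against 17.15, 16.66, 16.79 and 16.70. Fam71a was at 4.14 to 4.39 against 9.58 to 9.73. For both genes the PVCre arrays were close together, unlike those of Tyrobp, Il1a and Tnf. Traj55 is a single joining segment, and Cd3e, a constant part of the T cell receptor complex, was at 4.66 to 4.83 in PV-tdTomato arrays and at 4.62 to 4.94 in PVCre arrays, within background.

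Immediate early genes, which cells switch on within minutes of stimulation or stress, were higher for 21 of 26 tested and lower for none, with a median of 1.83. Control rescaling gave 24 higher, quantile normalization 22 and the separation covariate 14. Atf3, a stress-induced transcription factor, was at 6.45, 6.20, 5.51 and 5.75 in PV-tdTomato arrays and at 10.97, 10.59, 11.07 and 9.85 in PVCre arrays, a difference of 4.64 ± 0.33 (adjusted p = 1.8e-07). Zfp36, which destabilises cytokine messenger RNAs, was at 6.55, 6.52, 6.46 and 7.23 against 9.73, 9.94, 9.74 and 9.76. Egr2 was higher by 3.40 ± 0.33 and Btg2, an inhibitor of proliferation, by 3.36 ± 0.29. For Zfp36 and Egr2 PVCre array 1 was not the highest.

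Heat shock and unfolded protein genes were mixed, with 6 of 16 higher and 2 lower as deposited, 14 higher and none lower after control rescaling, and 2 higher and 3 lower without PV-tdTomato arrays 3 and 4. Ddit3, a transcription factor of endoplasmic reticulum stress, was at 10.29, 10.26, 8.98 and 9.62 against 12.82, 12.56, 12.75 and 12.21, a difference of 2.80 ± 0.39. Hspb1, a small heat shock protein, was higher by 1.58 ± 0.16. Interferon and antigen presentation genes had 5 of 17 higher and 2 lower, 3 higher and 1 lower without PVCre array 1, and none called with the separation covariate. B2m, the light chain of class I major histocompatibility molecules, was at 7.67, 8.82, 9.72 and 9.06 against 15.75, 14.32, 12.19 and 12.66, a difference of 4.91 ± 0.88 with arrays 1 and 2 highest, as for microglial genes.

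Genes of vessels were higher in PVCre cells. Of 15 endothelial genes 11 were higher and none lower, with a median of 1.23, and all 15 were higher after control rescaling. None was called with the separation covariate, with a median of 0.32. Of the 15 tested, 10 had a PV-tdTomato mean within background, so members could pass the low-level filter through the PVCre arrays. Without that filter 13 of 17 were higher, with a median of 1.15. Pecam1, an adhesion protein between endothelial cells, was at 5.76, 5.52, 5.40 and 5.26 in PV-tdTomato arrays and at 9.41, 7.71, 7.01 and 8.23 in PVCre arrays. Flt1, a receptor for vascular endothelial growth factor, was at 5.91, 6.04, 5.97 and 5.68 against 9.81, 7.70, 7.34 and 7.70. Of 8 pericyte and smooth muscle genes 7 were higher and 1 lower, and with the separation covariate 1 was higher and 1 lower. The same limit holds for this list, with 4 of the 8 at a PV-tdTomato mean within background. Without the filter 12 of 13 were higher and 1 lower, with a median of 0.96. Vtn, a secreted protein that marks pericytes, was at 5.74, 6.32, 5.96 and 5.89 against 11.67, 7.59, 8.02 and 7.96, and Rgs5 was at 5.98 to 6.89 against 11.28, 8.28, 8.03 and 7.74. PVCre array 1 was the highest for all 4 genes. Without it the median difference fell to 0.84 for endothelial genes, with 11 still higher, and to 0.91 for pericyte and smooth muscle genes, with 6 higher.

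Genes of ependymal cells and motile cilia, which line and beat along the ventricle beside the striatum, were higher for 12 of 15 and lower for none, with a median of 1.16. Control rescaling gave 15 higher, and without PV-tdTomato arrays 3 and 4 there were 9 higher and 1 lower. Tmem212, a gene of multiciliated cells, was at 12.35, 12.47, 10.86 and 11.30 against 14.43, 15.63, 13.99 and 15.02, a difference of 3.02 ± 0.38. Fam183b, a cilium gene, was higher by 2.63 ± 0.45 and Rsph4a, a radial spoke protein, by 1.59 ± 0.30. Their level was highest in PVCre array 2, unlike vessel genes.

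As deposited, the oligodendrocyte lineage divided by stage. Precursor genes were lower for 8 of 11 and higher for none, with a median of -2.30, and 7 were lower after both control rescaling and quantile normalization. Bmp4, a growth factor of newly committed cells, was at 8.88, 9.05, 12.17 and 12.91 in PV-tdTomato arrays and at 6.10, 6.10, 6.00 and 5.76 in PVCre arrays. Neu4, a sialidase, was at 8.37, 8.57, 13.42 and 12.49 against 6.43, 6.26, 6.22 and 5.69. Vcan, a matrix proteoglycan, was at 9.14, 8.83, 13.84 and 12.91 against 6.90, 6.97, 6.51 and 6.41. The PVCre arrays lay below both pairs of PV-tdTomato arrays for all 3 genes, but arrays 3 and 4 were far above arrays 1 and 2. Without arrays 3 and 4 the count was 3 lower of 11, with a median of -1.03, and without array 3 alone it was 5. Of all 20495 tested genes 6943 were lower without arrays 3 and 4, so 3 of 11 did not exceed the share of all genes.

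Genes of mature, myelinating oligodendrocytes were higher for 7 of 15 and lower for 1, with a median of 1.04. Control rescaling gave 13 higher and none lower, and without PV-tdTomato arrays 3 and 4 there were 11 higher and none lower. The separation covariate gave none higher and 1 lower, with a median of -0.17. Aspa, an enzyme of oligodendrocytes that supplies acetate for myelin lipid, was at 9.73, 9.81, 12.94 and 13.15 against 15.003, 14.24, 14.65 and 14.52, a difference of 3.20 ± 0.93. Mal, a myelin protein, was at 14.55, 14.42, 17.18 and 17.11 against 18.27, 17.91, 18.24 and 18.30. The 1 lower gene was Myrf, the transcription factor that starts myelin gene expression, at 10.86, 10.38, 13.18 and 13.19 against 9.46, 9.54, 9.40 and 9.58. PVCre arrays were thus above both PV-tdTomato pairs for Aspa and Mal and below both for Myrf.

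Matrix genes of perineuronal nets, the lattice around many parvalbumin neurons, were lower for 9 of 18 and higher for 3, with a median of -1.15; the counts were 8 and 4 after control rescaling and 8 and 1 with the separation covariate. Tnr, the tenascin that links the lattice, was at 13.97, 13.49, 17.11 and 16.95 against 9.87, 11.17, 10.13 and 9.996, a difference of -5.09 ± 0.83. Bcan, a proteoglycan of the lattice, was at 12.79, 12.17, 14.87 and 14.52 against 9.30, 9.55, 8.58 and 9.38. Both were highest in PV-tdTomato arrays 3 and 4, where precursor genes were highest too, and oligodendrocyte precursors also make Tnr and Bcan. The precursor genes' part in these falls was not tested. Hapln1, a link protein that parvalbumin neurons make, was at 12.68, 12.48, 10.17 and 10.61 against 9.79, 10.89, 12.26 and 12.14 and was not called. Adamts1, a protease that cleaves these proteoglycans, was higher by 2.78 ± 0.45, from a PV-tdTomato mean within background. Adamts4, a related protease of this list, went the other way. It was at 13.20, 12.83, 14.83 and 14.87 against 10.71, 10.65, 10.42 and 11.14, lower by 3.20 ± 0.49.

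Markers of other interneuron classes were lower for 7 of 18 (38.9%), close to the 35% of all genes, and higher for none. Their median was -0.84, and control rescaling gave 7 lower and 2 higher. The separation covariate gave 4 lower, and 11 were lower without the 6 arrays lowest in Pvalb. Th, which makes the catecholamine precursor L-DOPA and marks a striatal interneuron class, was at 14.10, 14.14, 11.09 and 11.06 in PV-tdTomato arrays and at 7.61, 7.67, 8.10 and 8.11 in PVCre arrays, a difference of -4.72 ± 0.70 (adjusted p = 7.8e-05). Trh, the precursor of thyrotropin-releasing hormone, was at 11.85, 12.15, 8.998 and 9.33 against 5.67, 5.18, 6.37 and 5.10. Calb2, the calcium buffer calretinin, was at 10.40, 10.71, 9.42 and 9.37 against 5.35, 5.39, 5.47 and 5.37. For all 3 genes the PV-tdTomato arrays 1 and 2 were the highest, and the PVCre arrays lay below arrays 3 and 4 too. The PVCre means of Trh and Calb2 were within background, so those differences are set against background.

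Tacr3 and Wdr6, among the largest falls, had this order of arrays. Tacr3, a receptor for neurokinin B, was at 11.18, 11.03, 9.38 and 9.36 against 5.50, 4.98, 5.06 and 5.05, a difference of -5.09 ± 0.38. Its PVCre mean was within background, so this difference is set against background. Wdr6 was at 11.77, 11.25, 10.29 and 10.68 against 6.08, 6.43, 6.99 and 6.72. The peptides of another class did not share it. Sst, somatostatin, was at 12.86, 12.27, 13.53 and 13.56 against 12.69, 8.61, 13.05 and 11.02, and Npy, neuropeptide Y, was at 12.65, 11.82, 14.13 and 14.52 against 11.96, 7.79, 11.99 and 9.72. The groups overlapped for both, PVCre array 2 was the lowest, and neither difference was called (adjusted p = 0.21 for Sst and 0.072 for Npy). Chat, the enzyme that makes acetylcholine, was within background on all 8 arrays, at 4.93 to 5.18, while Slc5a7, the choline transporter of cholinergic neurons, was lower by 1.89 ± 0.18 from a PV-tdTomato level of 6.73 to 7.12.

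Genes of striatal projection neurons, the main neurons of the tissue, were lower for 11 of 22 (50%) and higher for none, against 35% and 18.3% of all genes. Their median was -0.56. Control rescaling gave 5 lower and 2 higher, and the separation covariate 6 lower and 1 higher. Ppp1r1b, a phosphatase regulator called DARPP-32, was at 8.42, 8.06, 8.77 and 9.20 against 6.96, 7.87, 6.85 and 6.87. Pdyn, the dynorphin precursor, was at 9.01, 9.04, 7.52 and 7.61 against 6.40, 6.33, 6.11 and 6.01, and Ptpn5, a striatum-enriched phosphatase, was lower by 2.10 ± 0.32. Of 9 pyramidal neuron genes 4 (44.4%) were lower and 1 (11.1%) higher, against 35% and 18.3% of all genes. Pan-neuronal genes were lower for 5 of 16 and higher for 1 as deposited, with both shares below those of all genes, and higher for 4 and lower for 1 after control rescaling. With the separation covariate 2 were higher and none lower, whereas without the 6 arrays lowest in Pvalb 13 were lower and none higher, with a median of -1.74. Map2, a microtubule protein of dendrites, was at 12.63, 12.68, 12.39 and 12.48 against 9.95, 10.74, 11.19 and 10.98. Its PV-tdTomato arrays lay close together, as did those of Elavl3, at 13.68, 13.53, 13.80 and 14.08. Those of Celf4, at 14.21, 13.94, 11.91 and 12.44, divided into pairs. Astrocyte genes were lower for 2 of 13 and higher for none, and this turned to 3 higher and 1 lower after control rescaling, and only 1 was lower without PV-tdTomato arrays 3 and 4. Aldoc, a glycolytic enzyme rich in astrocytes, was lower by 3.02 ± 0.29.

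Synaptic vesicle genes were lower for 25 of 38 and higher for none, against 35% and 18.3% of all genes, with a median of -1.28. The count was 20 lower after quantile normalization, and 11 lower and 3 higher after control rescaling. With the separation covariate 3 were lower and 3 higher, with a median of 0.14. Cplx2, a complexin that clamps vesicle fusion, was at 11.17, 11.31, 9.31 and 9.83 in PV-tdTomato arrays and at 6.78, 7.29, 7.07 and 6.69 in PVCre arrays. Syngr3, a vesicle membrane protein, was at 11.38, 11.18, 9.77 and 9.94 against 6.64, 6.83, 7.53 and 7.46, and Sv2c, a vesicle protein rich in basal ganglia, was lower by 2.03 ± 0.25. Cplx1, the complexin typical of fast interneurons, was at 13.64, 13.01, 10.95 and 11.28 against 10.14, 11.26, 12.01 and 10.96 and was not called. The complexin of these cells thus overlapped between the lines while Cplx2 did not, and whether the 2 differences differ from each other was not tested.

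Of 24 sodium and calcium channel genes 17 were lower and none higher, with a median of -1.31. Control rescaling gave 6 lower and 1 higher, and the separation covariate 4 lower and none higher. Cacna1e, the R-type calcium channel, was at 9.42, 9.71, 9.93 and 9.76 against 6.76, 6.88, 6.78 and 6.19, a difference of -3.05 ± 0.20 (adjusted p = 9.3e-08). Cacna1g, a T-type channel, was lower by 3.24 ± 0.37, and Scn3a, a sodium channel of young neurons, by 1.49 ± 0.27. Scn1a, the sodium channel of fast-spiking cells, was at 12.59, 12.34, 10.34 and 10.54 against 9.72, 10.60, 11.66 and 11.69 and was not called. Its PVCre arrays overlapped PV-tdTomato arrays 3 and 4 and all lay below arrays 1 and 2. Of 44 potassium channel genes 18 were lower and none higher, close to the background share, with 9 lower and 2 higher after control rescaling. The separation covariate gave 6 lower and 8 higher, and 32 were lower without the 6 arrays lowest in Pvalb.

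Among potassium channels the fast-spiking subunits overlapped between the lines. Kcnc1 was at 12.45, 11.97, 9.61 and 10.16 against 8.39, 9.67, 10.34 and 10.14, and Kcnc2 was at 9.71, 9.85, 7.97 and 8.0 against 6.51, 7.41, 8.24 and 7.16. Neither Kv3 gene was called, each with an adjusted p of 0.29. Kcnc4, another Kv3 gene, was at 9.83, 10.02, 8.99 and 8.59 against 5.71, 5.54, 5.77 and 5.46 and was lower by 3.74 ± 0.37. Kcnip3, a calcium-binding partner of Kv4 channels, was at 12.10, 11.59, 13.56 and 12.95 against 7.94, 7.90, 8.04 and 7.75, a difference of -4.64 ± 0.67. Kcnip3 belongs with the genes highest in PV-tdTomato arrays 3 and 4.

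Glutamate receptor genes were lower for 12 of 19 and higher for none, with a median of -1.22. Control rescaling gave 8 lower and 2 higher, and the separation covariate 6 lower and 1 higher. Grik3, a kainate receptor subunit, was at 9.60, 9.75, 9.83 and 9.70 against 6.34, 6.60, 6.42 and 5.78, a difference of -3.44 ± 0.19 (adjusted p = 4.4e-08). Grin3a, a modulatory NMDA receptor subunit, was at 9.07, 9.41, 10.60 and 9.57 against 6.06, 6.05, 6.49 and 5.65. Gria2, the AMPA receptor subunit that limits calcium entry, was at 12.98, 13.11, 13.30 and 13.37 against 10.69, 11.33, 11.66 and 11.45, while Gria4, the subunit typical of fast interneurons, was at 13.57, 13.47, 12.05 and 12.31 against 11.48, 12.20, 13.01 and 12.85 and was not called as deposited; it was higher by 1.42 after control rescaling (adjusted p = 0.0085). Of 9 GABA-A receptor genes 3 (33.3%) were lower, close to the 35% of all genes, and none was higher. Their median of -0.23 turned to 0.52 after control rescaling, with 2 lower. With the separation covariate 2 were higher and 1 lower, and 5 were lower without the 6 arrays lowest in Pvalb. Gabrg1 was lower by 3.28 ± 0.25, from 8.02 to 8.56 in PV-tdTomato arrays to 4.70 to 5.32 in PVCre arrays, which is within background.

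Axon guidance genes were lower for 24 of 38 and higher for none, with a median of -1.12, with 12 lower and 1 higher after control rescaling and 10 lower and 2 higher with the separation covariate. Dcc, the netrin receptor, was at 9.90, 9.85, 9.92 and 9.39 against 6.99, 7.09, 7.06 and 6.77, a difference of -2.79 ± 0.18 (adjusted p = 1e-07). Sema5a, a guidance protein that oligodendrocyte cells also make, was at 12.09, 11.80, 12.89 and 13.05 against 9.66, 9.90, 9.52 and 9.65. Neurotrophic factor and receptor genes were lower for 7 of 18 (38.9%), close to the 35% of all genes, and higher for 2. These counts turned to 4 higher and 2 lower after control rescaling. Gfra1, the receptor of glial cell line-derived neurotrophic factor, was at 9.91, 9.77, 11.91 and 11.61 against 8.84, 8.67, 8.81 and 8.58, a difference of -2.08 ± 0.49. Gfra2, the neurturin receptor, was at 11.15, 10.97, 9.67 and 9.29 against 6.86, 6.31, 6.85 and 6.11, a difference of -3.74 ± 0.38. The highest PV-tdTomato arrays were 3 and 4 for Gfra1 and 1 and 2 for Gfra2. Gdnf, the factor itself, was left out by the filter on low levels, at 4.55 to 5.86 in PV-tdTomato arrays and at 5.61 to 6.25 in PVCre arrays.

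In the catecholamine list 3 of 11 genes (27.3%) were lower and 1 (9.09%) higher, both below the 35% and 18.3% of all genes. Without PV-tdTomato arrays 3 and 4 the counts were 2 and 2, as after control rescaling and after quantile normalization. Gch1, which makes the cofactor of tyrosine hydroxylase, was at 4.93 to 5.08 against 9.15, 7.51, 6.58 and 7.15, a difference of 2.58 ± 0.45 in the direction opposite to Th. Activated immune cells and endothelial cells express Gch1 as well, and their part in its rise was not tested. Drd5, a dopamine receptor, was lower by 1.30 ± 0.29. Ret, the signalling receptor that works with Gfra1, was at 5.31 to 5.43 in PV-tdTomato arrays and at 5.45 to 6.08 in PVCre arrays, within background (adjusted p = 0.39).

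The counts of housekeeping groups moved with the scaling and with single arrays. Of 56 oxidative phosphorylation genes 6 were higher and 11 lower with a median of -0.03. Control rescaling gave 46 higher and 1 lower, and 32 and 1 were found with the separation covariate. Without PV-tdTomato arrays 3 and 4 there were 26 lower and 1 higher. The counts lower and higher were 5 and 7 without PV-tdTomato array 1, 5 and 10 without array 2, 19 and 3 without array 3, 11 and 3 without array 4, and 5 and 5 without PVCre array 1. Sdha, a subunit of complex II, was at 12.88, 12.79, 12.09 and 12.25 against 9.39, 9.90, 10.49 and 10.04, a difference of -2.55 ± 0.32. Uqcrb, a subunit of complex III, was at 13.80, 14.15, 12.41 and 12.78 against 14.97, 15.09, 15.18 and 15.24, a difference of 1.84 ± 0.34, while Uqcrc1 of the same complex was lower by 2.45 ± 0.48. Of 32 cytosolic ribosomal protein genes 10 were higher and 4 lower, against 28 higher and none lower after control rescaling, 4 higher and none lower with the separation covariate, and 4 higher and 6 lower without PV-tdTomato arrays 3 and 4. Many of these genes have processed copies elsewhere in the genome that can share signal.

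Lysosomal genes were lower for 7 of 19 (36.8%) and higher for 3 (15.8%), close to the 35% and 18.3% of all genes. These counts turned to 10 higher and 1 lower after control rescaling and were 3 lower and none higher with the separation covariate. Gaa, which breaks down glycogen, was at 13.25, 12.98, 12.29 and 12.30 against 8.52, 8.96, 9.55 and 9.27, a difference of -3.63 ± 0.38, and Ctsh, a cathepsin, was higher by 1.90 ± 0.32. Cholesterol synthesis genes were higher for 7 of 18 and lower for 6, higher for 11 and lower for 1 after control rescaling, and higher for 1 and lower for 5 with the separation covariate. Msmo1, which acts on methylsterols, was at 9.01, 9.28, 9.79 and 9.69 against 12.14, 11.79, 11.54 and 12.32, a difference of 2.50 ± 0.31. Srebf2, the regulator of the pathway, was lower by 1.59 ± 0.31, from 9.46 to 11.09 in PV-tdTomato arrays to 8.66 to 8.76 in PVCre arrays. The nuclear RNA Neat1 was higher by 1.94 ± 0.29, and Miat, a neuronal RNA, was lower by 1.20 ± 0.12, with PV-tdTomato arrays at 7.56 to 7.69 and PVCre arrays at 6.39 to 6.48.

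**Figure D4:**
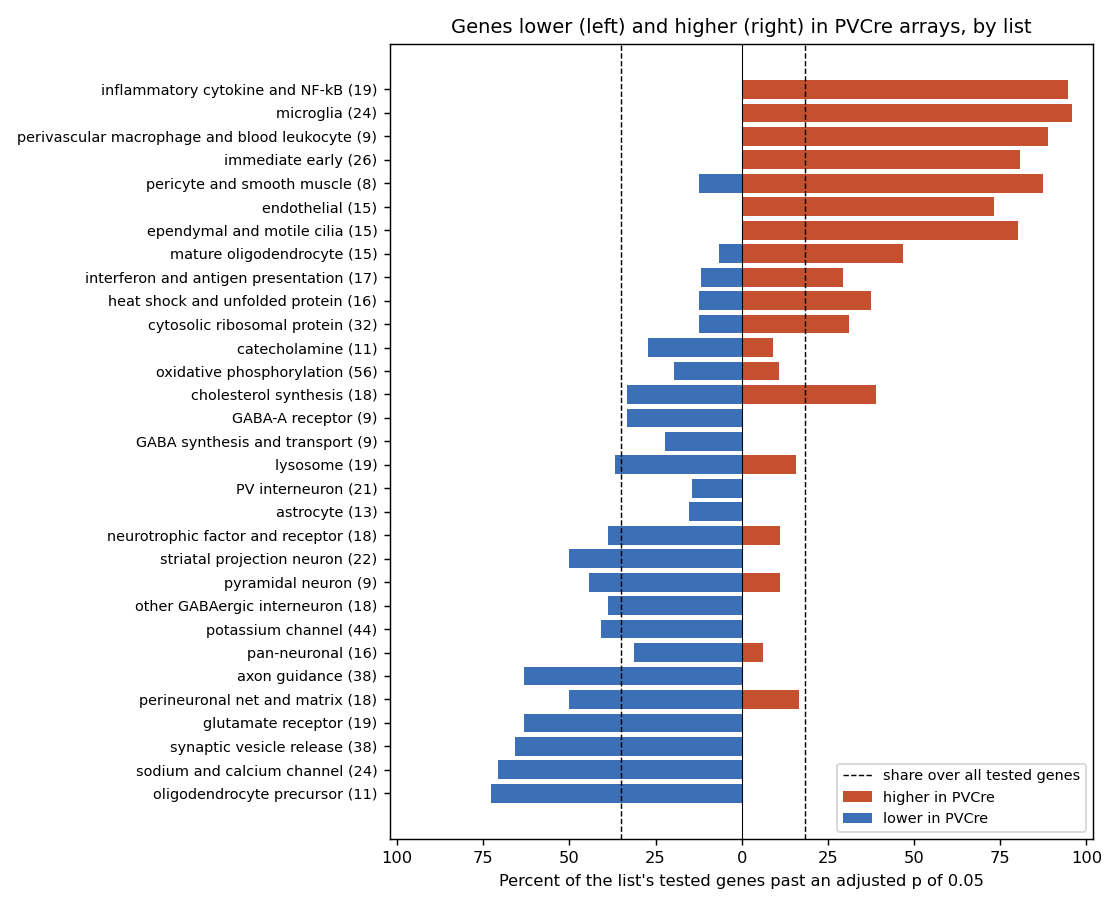
Percent of each list's tested genes (number in brackets) that were lower (left) or higher (right) in PVCre arrays at an adjusted p of 0.05, for lists with 8 or more tested genes. Dashed lines mark the shares over all tested genes, 35% lower and 18.3% higher. Immune, vessel, cilium and immediate early lists pass the right line by the most, and precursor, channel, synaptic vesicle, glutamate receptor and axon guidance lists pass the left line.

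Large differences were also found in microRNA genes. Among 586 tested microRNA genes 165 (28.2%) were higher and 85 (14.5%) lower, against 18.3% and 35% of all genes, with a median of 0.16. This balance was not particular to them. The shares were 32.6% and 16.9% for long noncoding RNAs, 31.2% and 13.3% for pseudogenes, and 36.1% and 15.6% for the 2050 genes of lowest level. The part of level in this was not tested. Mir7671 was at 7.01, 7.05, 7.40 and 7.01 in PV-tdTomato arrays and at 13.70, 13.06, 13.54 and 13.30 in PVCre arrays, a difference of 6.28 ± 0.16 with the smallest adjusted p of any gene named here, 7.5e-12. Mir483, which lies within the growth factor gene Igf2, was at 8.28, 8.46, 8.32 and 7.70 against 13.65, 12.96, 13.35 and 12.83, a difference of 5.01 ± 0.23. Igf2 itself was at 5.34 to 5.45 against 6.31 to 6.99, a difference of 1.16 ± 0.15. The arrays of each line were close together for both microRNA genes, unlike those of the microglial genes.

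Mir1912, which lies within the serotonin receptor gene Htr2c, went the other way. It was at 11.53, 12.50, 11.38 and 11.07 against 7.91, 7.67, 7.37 and 7.29, a difference of -4.06 ± 0.61, and Htr2c was at 10.47, 10.18, 9.19 and 9.29 against 5.56, 5.63, 6.12 and 5.31, a difference of -4.13 ± 0.73. The Mir1912 and Htr2c genes were chosen after their values were seen, because a microRNA and its host can be read side by side. The mature sequences are printed from RefSeq, 5′ to 3′, with the seed (bases 2 to 8) in capitals, for the 2 microRNA genes among the largest rises and for Mir1912. On GRCm38.p6 they are on the minus strand of chr11 for Mir7671, at chr11:53763597-53763618 (3p) and chr11:53763632-53763654 (5p), and on the minus strand of chr7 for Mir483, at chr7:142654932-142654952 (3p) and chr7:142654968-142654989 (5p). The Mir1912 arm is on the plus strand at chrX:147009493-147009514.
mmu-miR-7671-3p: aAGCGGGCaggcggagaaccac
mmu-miR-7671-5p: aGGCUCCGcucuggcuagcuucc
mmu-miR-483-3p: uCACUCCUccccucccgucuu
mmu-miR-483-5p: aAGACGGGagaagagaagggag
mmu-miR-1912-3p: cACAGAACaugcagugagaacu

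No 2 of these 5 seeds were the same. The files give 1 value per microRNA gene and do not tell its arms apart. Mir7671 lies within no protein-coding gene of the RefSeq annotation and its nearest is Irf1, an interferon response factor, which was not among the tested genes. That neighbour was looked up after the values were seen.

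Most of the line difference was shared by the regions. In cortex 10975 genes (53.5%) were called between the lines, 19.2% higher and 34.4% lower. Of the striatal calls 81.6% were also called in cortex, and of the cortical calls 81.4% were called in striatum. Of 8932 genes called in both, 8917 had the same sign. The line differences of the 20495 genes correlated with r = 0.865 across genes, a description only, since genes are not independent replicates and the labels do not say whether pools of the regions came from the same mice. Control separation was lower in the PVCre arrays of cortex too, at 3.08 to 3.93 against 4.30 to 4.85.

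The test of whether the line difference itself differed between regions called 40 genes (0.195%), 30 with a more positive difference in striatum (0.146%) and 10 with a more negative one (0.0488%). At an unadjusted p under 0.05 there were 1466. Same-numbered arrays of striatum and cortex deviated from their group means with correlations of 0.58 to 0.76 across genes in the PV-tdTomato line and of -0.29 to 0.69 in the PVCre line, and this test takes the regions as independent. Keeping arrays of one line and number together as a random replicate block, an alternative added after seeing the data, gave 139 genes. In each line arrays of some numbers matched another number of the other region best, so this block may not hold true pairs. The count of 40 fell to 23 without PV-tdTomato array 1, PV-tdTomato array 4 or PVCre array 2, and to 25 without PVCre array 4. Vip, the peptide of a cortical interneuron class, was lower in cortical PVCre cells by 7.25 ± 0.90 and differed by -0.45 ± 0.90 in striatum, where it was at 5.03 to 6.44 in PV-tdTomato arrays and at 4.77 to 5.84 in PVCre arrays. The striatal means of both lines were within background. Adarb2, Nr2f2 and Cxcl14, markers of interneurons from the caudal ganglionic eminence, had the same direction of the test, with values of 4.96 ± 0.78, 5.18 ± 0.88 and 5.79 ± 0.79. Adarb2 and Cxcl14 were also called lower in striatum, by 1.98 ± 0.55 and 1.88 ± 0.56, and the striatal PVCre mean of Adarb2 was within background. Nr2f2 differed by 0.71 ± 0.62 there, from a PV-tdTomato mean within background. A striatal fall as large as the cortical one could not be seen from such levels. Necab1, a calcium-binding protein, was lower in cortex by 5.45 ± 0.75 and differed by 0.46 ± 0.75 in striatum, where its levels were 14.26, 14.56, 11.66 and 12.31 against 12.25, 13.98, 14.39 and 13.98.

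Tacr3 differed between regions by -4.05 ± 0.54 (adjusted p = 0.0064) and Trh by -5.01 ± 0.82 (adjusted p = 0.022). In cortex Tacr3 was lower by 1.04 ± 0.38, and Trh differed by 0.01 ± 0.58. Mc3r, a melanocortin receptor, was at 9.86, 9.51, 7.61 and 7.74 against 5.44, 5.13, 5.18 and 5.11 in striatum and differed by -0.13 ± 0.39 in cortex. Gfra2 and Cemip2, a hyaluronan-degrading enzyme, differed between regions by -2.99 ± 0.54 and -2.33 ± 0.40. Endothelial genes were higher for 11 of 15 in striatum and for 1 of 15 in cortex, yet no endothelial gene was called in the test between regions, so these counts are not a tested difference. The same holds for motile cilium genes, higher for 12 of 15 in striatum and 5 of 15 in cortex, of which none was called between regions.

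**Figure D5:**
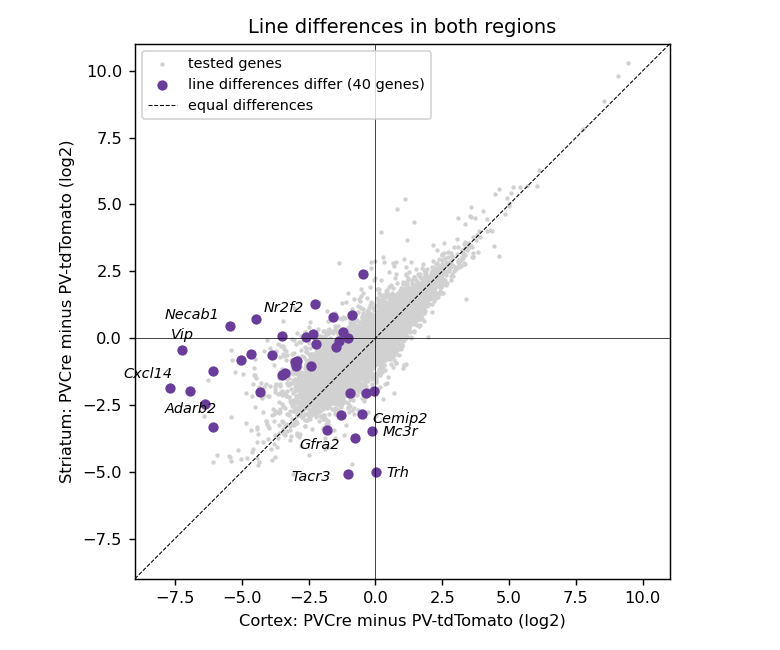
Difference between PVCre and PV-tdTomato means in striatum (vertical axis, log2) against that in cortex (horizontal axis, log2) for 20495 tested genes, with the 40 genes whose line difference differed between regions in purple. Vip, Cxcl14, Adarb2, Necab1 and Nr2f2 lie to the left, with a cortical difference of -4.47 or lower, and Trh, Tacr3, Mc3r, Gfra2 and Cemip2 lie below, with a striatal difference of -2.84 or lower.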

How the data were processed

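RNA from sorted cells was hybridised to Affymetrix GeneChip Mouse Transcriptome arrays, 1 per pool. The authors deposited log2 levels. The submitters' processing notes name RMA and Affymetrix Expression Console, without a version, and the sources used here do not give the genome build or which arrays were normalized together. Of 65956 transcript clusters, 31216 had a single gene; 33206 had none and 1534 several. The cluster with the highest mean stood for each of 30743 genes, and the third with the lowest mean level (under 5.53) was left out, leaving 20495. limma 3.58.1 in R 4.3.3 fitted 1 mean per group to all 16 arrays (lmFit, eBayes), and p-values were Benjamini-Hochberg adjusted over all tested genes. Differences are PVCre minus PV-tdTomato. Values of genes under the filter come from the same fit without it. On simulated data for the striatal comparison, with 200 of 20495 genes changed, 52% of changes of 1 log2 unit and 91% of changes of 2 were recovered, with 10 false calls.

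The members and gene lists were chosen with earlier results of these data known. Genes were drawn from those given by a rule, and not all of these are described. It took the 15 largest rises and falls whose arrays did not overlap, and the 5 largest regional differences either way. It also took the members with the smallest p in every list (at most 5). List members with a defining role and a few genes of the design were added. Of the largest falls, Lhfpl3, Ptprn, Tubb2b and Tmem255a are not described, with differences of -4.61, -4.53, -4.50 and -4.46. The replicate block across regions used limma's duplicateCorrelation within each line, with a correlation of 0.32. The labels do not say that pools are from separate animals, so p-values rest on the spread among pools only, which may be technical. The number of arrays limits precision. Alternatives covered filtering, scaling, the prior, weights, covariates, the replicate block and left-out arrays.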

Additional observations from a re-analysis of the deposited data

Results flagged for a closer look

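Among 344 groups of 4 arrays tested for a sample far from the others, 24 had a ratio of gap to range above Dixon's 95% critical value; chance gives about 1 in 20. PV-tdTomato array 3 stood apart for Xist (0.968), Uty (0.913), Eif2s3y (0.895), Kdm5d (0.894) and Mir7671 (0.905). PV-tdTomato array 4 stood apart for Zfp36 (0.875) and Dcc (0.862), and array 1 for Tnf (0.856). PVCre array 1 stood apart for Vtn (0.893), Kcna2 (0.882), ND6 (0.882), Flt1 (0.854), Rgs5 (0.847), Tacr3 (0.843) and Cxcl2 (0.831). It also did so for control separation (0.929) and for the mean levels of the perineuronal net and matrix list (0.943), the oxidative phosphorylation list (0.903) and the pericyte and smooth muscle list (0.838). PVCre array 2 stood apart for Ppp1r1b (0.895), Xist (0.888), Mal (0.851) and Zfp36 (0.841), and PVCre array 4 for the mean level of the heat shock and unfolded protein list (0.86).

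The line difference differed between striatum and cortex in limma's test for 11 genes named in the text. Striatum minus cortex was 6.80 for Vip, 5.91 for Necab1, 5.79 for Cxcl14, 5.18 for Nr2f2 and 4.96 for Adarb2. It was -5.01 for Trh, -4.05 for Tacr3, -3.33 for Mc3r, -2.99 for Gfra2, -2.33 for Cemip2 and -1.63 for Grik3.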

How the results depend on the processing

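Of 10942 calls in striatum, 3760 were higher and 7182 lower. Without the low-level filter 6959 were higher, and with 15372 genes of higher level kept 2039 were. Control rescaling gave 7621 higher and 2686 lower. Testing against a minimum difference of 1 log2 unit gave 872 calls, 254 higher and 618 lower. The microglial covariate gave 3076 (559 and 2517) and the control separation covariate 5632 (2117 and 3515). The 40 regional calls became 90 with control rescaling, 131 with array weights, 184 with the oligodendrocyte covariate, 139 with the replicate block within each line and 154 without the 6 arrays lowest in Pvalb (both chosen after seeing the data) and 0 with the minimum difference of 1 in limma, against 1466 at an unadjusted p under 0.05 without that minimum. Leaving out 1 striatal array gave 9882 to 10511 striatal calls, 3283 to 3743 higher, 6592 to 7073 lower, and 23 to 33 regional calls. The cause of these changes was not tested.

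Control rescaling turned Ddx3x (0.98), Gria4 (1.42) and Kcna2 (0.20). The microglial covariate turned B2m (-0.19), Cx3cr1 (-0.15), P2ry12 (-1.39), Ptgs2 (-0.63), Tgfb1 (-0.031), Tnfaip3 (-0.55) and Slc32a1 (0.041). Cx3cr1 and P2ry12 are members of the list whose mean is this covariate. Its striatal values also did not overlap between the lines, so these turns are not a result about the genes. The control separation covariate turned Abat (0.11), Gria4 (1.69), Kcna2 (0.47), Lhx6 (0.59) and Slc32a1 (0.19).

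The groups share replicate numbers. Between PVCre and PV-tdTomato striatal arrays same-numbered arrays had correlations of -0.43 to -0.079 and none matched its own number best, so the numbers were not taken to pair the lines. Across regions they deviated together in every pair of the PV-tdTomato line but not of the PVCre line. Even so, PV-tdTomato striatal arrays 2 and 4 matched cortical arrays 1 and 3 best, not their own numbers. PVCre striatal arrays 1 and 4 matched cortical arrays 4 and 3 best. With the replicate block 10844 genes were called, 9021 with the block on striatal arrays alone, and 10911 with the block of line and number across regions; the block across lines gave 29 regional calls.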

Other observations

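Classes of RNA differed in their balance of calls. Of 13729 protein-coding genes 13.2% were higher and 45.6% lower in PVCre cells, with a median difference of -0.45. Long noncoding RNAs were higher for 32.6% and lower for 16.9% of 1336 genes, and pseudogenes for 31.2% and 13.3% of 2820. Small nucleolar RNAs, which guide the modification of ribosomal RNA, were higher for 25.9% and lower for 5.97% of 703. Protein-coding genes also had the higher median level in PV-tdTomato cells, 7.96 against 6.09 for long noncoding RNAs, and the part of level in this was not tested.

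Among protein-coding genes the share that was higher fell with gene length, from 21.6% in the shortest bin of 2746 genes (0.156 to 7.05 kb) to 7.1% in the longest (73.0 to 2390 kb). The share that was lower was 31.4% in the shortest bin, 52.9% at 31.9 to 73.0 kb and 48.9% in the longest. The median level in PV-tdTomato cells rose over these bins from 6.998 to 8.61, and the part of level in this was not tested.

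Of 6 tested mitochondrially encoded genes 5 were higher in PVCre cells. COX2, a subunit of cytochrome oxidase, was at 10.49, 10.60, 9.55 and 9.66 in PV-tdTomato arrays and at 12.82, 12.53, 13.21 and 12.69 in PVCre arrays, a difference of 2.74 ± 0.29 (adjusted p = 3.8e-06 in limma). COX1 was higher by 0.72 ± 0.14, ND2 by 1.48 ± 0.36, ND3 by 1.65 ± 0.37 and ND6 by 1.15 ± 0.28. The mitochondrial ribosomal RNA mt-Rnr1 differed by 0.36 ± 0.18 and was not called (adjusted p = 0.11). These genes have nuclear copies that can share signal.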
